A study of Mus musculus with 2 samples.

Results

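The immunity-related GTPases (IRG) are a family of interferon-inducible GTPases, and 6 of them were described here across the IL-5+ and IL-5- fractions of mouse memory T helper 2 (Th2) cells. The members were Irgm1, Irgm2 and Igtp (also called Irgm3), which are the regulatory proteins of the family, and the effector genes Iigp1 (Irga6), Ifi47 (Irgd) and Gm4951 (Ifgga2). They were taken as every probe set whose only gene symbol in the platform annotation was a member, which gave 7 probe sets of 45037, and 6 genes of 18193. The members were selected on the IL-5+ and IL-5- signals of these same arrays, so their values are a description and carry no test.

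Both groups were CD4 T cells of the BALB/c strain carrying the DO11.10 T cell receptor transgene, which recognises an ovalbumin (OVA) peptide. Splenic CD4 T cells of over 98% purity were stimulated with the peptide for 6 days in Th2 medium (25 U/ml IL-2 and 100 U/ml IL-4). They were then moved into syngeneic BALB/c nu/nu mice, which lack a thymus but keep B cells, natural killer cells and myeloid cells of their own. After 30 days the memory cells were collected from the spleen and separated by flow sorting on IL-5. The labels give neither the number or age of the mice nor whether RNA was pooled. The transferred cells carry 1 receptor transgene and were stimulated with its peptide, so a broad range of T cell specificities was not sampled.

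Total RNA of each fraction was measured on 1 Affymetrix array, so there were 2 arrays and no replicates. Without replicates no p-value can be given, and the ratios hold for this pair of RNA samples. A signal is a linear probe set intensity. Signals at or under 36.3, the 40th percentile of all signals (the floor), were set to that value. Where a single array exceeded the floor, the ratio is a bound, written "at least". Genes count as higher or lower from a 2-fold difference on, a log2 ratio (IL-5+ over IL-5-) of 1 or -1.

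IRG proteins are made in response to interferons, above all interferon gamma, through JAK kinases and interferon regulatory factors. The effector proteins load onto the vacuoles that enclose intracellular pathogens and disrupt them. The regulatory proteins sit on the cell's own membranes and hold the effectors inactive there. In mice that lack Irgm1, CD4 T cells exposed to interferon gamma die, so the family is also known for a role inside T cells.

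Promoters are shown first because interferon-induced genes are read through short elements close to the transcription start, and because the members lay on the same side of the comparison. RefSeq sequences (GRCm38.p6) were matched by symbol for Irgm1, Igtp, Irgm2 and Ifi47. No promoter entry was found for Iigp1 and Gm4951, the members with the largest differences between the fractions, so their promoters were not examined. The 250 bases before each annotated start follow, read 5′ to 3′ on the gene's strand. Capitals mark the core of the interferon-stimulated response element, searched on both strands as GAAA, any 2 bases and GAAA again.

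Irgm1, chr11:48871421-48871670, minus strand: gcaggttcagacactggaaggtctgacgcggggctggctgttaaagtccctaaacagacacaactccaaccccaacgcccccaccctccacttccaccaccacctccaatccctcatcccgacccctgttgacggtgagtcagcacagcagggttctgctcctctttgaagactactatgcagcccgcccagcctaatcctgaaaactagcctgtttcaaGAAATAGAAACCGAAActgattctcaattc

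Igtp, chr11:58199306-58199555, plus strand: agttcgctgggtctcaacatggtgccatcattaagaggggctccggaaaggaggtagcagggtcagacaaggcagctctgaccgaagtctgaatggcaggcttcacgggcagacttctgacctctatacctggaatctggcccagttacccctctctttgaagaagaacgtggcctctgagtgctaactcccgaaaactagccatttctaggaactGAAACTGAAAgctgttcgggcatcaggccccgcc

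Irgm2, chr11:58214727-58214976, plus strand: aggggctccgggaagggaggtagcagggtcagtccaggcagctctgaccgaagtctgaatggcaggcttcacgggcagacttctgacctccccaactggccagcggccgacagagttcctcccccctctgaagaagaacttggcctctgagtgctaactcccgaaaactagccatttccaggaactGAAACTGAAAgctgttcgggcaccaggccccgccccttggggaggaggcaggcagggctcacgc

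Ifi47, chr11:49076337-49076586, plus strand: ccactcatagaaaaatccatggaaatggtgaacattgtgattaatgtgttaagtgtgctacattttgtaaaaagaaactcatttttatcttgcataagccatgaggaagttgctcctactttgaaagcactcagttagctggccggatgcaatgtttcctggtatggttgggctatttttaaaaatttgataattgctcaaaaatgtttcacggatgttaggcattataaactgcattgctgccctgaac

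The element was present in 3 of these 4 promoters. In Igtp the match GAAACTGAAA ran from -34 to -25 relative to the start, and in Irgm2 the identical match ran from -64 to -55. Irgm1 had a pair of overlapping matches, GAAATAGAAA from -30 to -21 and GAAACCGAAA from -24 to -15. Ifi47 held no match in this window. Over all 32851 promoter windows of 300 bases in the table (250 before to 50 after the start), 3.44% held the element on either strand.

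The gamma-activated sequence TTCNNNGAA, a palindromic element, was found in Igtp (TTCTAGGAA, from -45 to -37) and Irgm2 (TTCCAGGAA, from -75 to -67). In both it stood just before the first element, with no overlap. It was present in 8.30% of all windows. The form with 3 bases between the GAAA repeats, on either strand, was in none of the 4 windows and in 2.75% of all. A match describes letters only and does not show that a factor bound there.

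Igtp and Irgm2, which are next to each other on chromosome 11, had the most similar promoters of the 6 pairs. Their 250 bases were 68.1% identical (194 of 285 aligned columns), while the other pairs lay between 44.2% and 52.2%. Their longest shared run was 55 bases, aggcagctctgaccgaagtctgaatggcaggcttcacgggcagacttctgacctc, and no other gene in the table held it. Irgm1, Igtp and Irgm2 also shared the 11 bases gaaaactagcc, a run chosen after the sequences were seen. It starts at -49 in Irgm1 and at -88 in Irgm2. Of all windows 4 held it on either strand. The remaining one was that of Jkamp, which had signals of 1513 and 1367 on the IL-5+ and IL-5- arrays.

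All 6 members had a lower signal in the IL-5+ fraction, and all 6 were at least 2-fold lower there. Across the array, 4.01% of the 13133 genes above the floor on 1 or both arrays were at least 2-fold lower and 2.85% at least 2-fold higher. The members had been chosen with this contrast in view, so nothing is read from their share. Their median log2 ratio was -1.79 with Gm4951 at its bound, while the median of all measured genes was -0.048. In such bulk RNA, fewer cells that express a gene and less RNA per cell cannot be told apart.

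Among the regulatory genes, Irgm1 had signals of 1946 in IL-5+ and 4633 in IL-5- cells. Irgm1 was therefore 2.38-fold lower in the IL-5+ fraction, a log2 ratio of -1.25. Igtp, which like Irgm2 resides on intracellular membranes, measured 5194 and 16544. Its log2 ratio was -1.67, or 3.19-fold lower. Irgm2 measured 470.4 and 1755, a log2 ratio of -1.90 and a 3.73-fold difference. The regulatory genes thus ranged from -1.90 to -1.25, and each kept a signal far above the floor in IL-5+ cells.

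The effector genes spread more widely. Ifi47 was bright in both fractions, at 6077 in IL-5+ and 14634 in IL-5- cells, and was 2.41-fold lower (log2 ratio -1.27). Iigp1 had signals of 602.9 and 7163 at its brighter probe set and 283.6 and 2962 at the other. These gave log2 ratios of -3.57 and -3.38, so that Iigp1 was 11.9-fold and 10.4-fold lower. Its IL-5+ signals stayed well above the floor, and the difference did not depend on it. Gm4951 had 34.2 on the IL-5+ array, just under the floor, and 827.7 on the IL-5- array. It was at least 22.8-fold lower (log2 bound -4.51), the second lowest value of all 13133 measured genes, with bounds taken at the floor, while Iigp1 ranked 5 from the lowest.

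**Figure D1:**
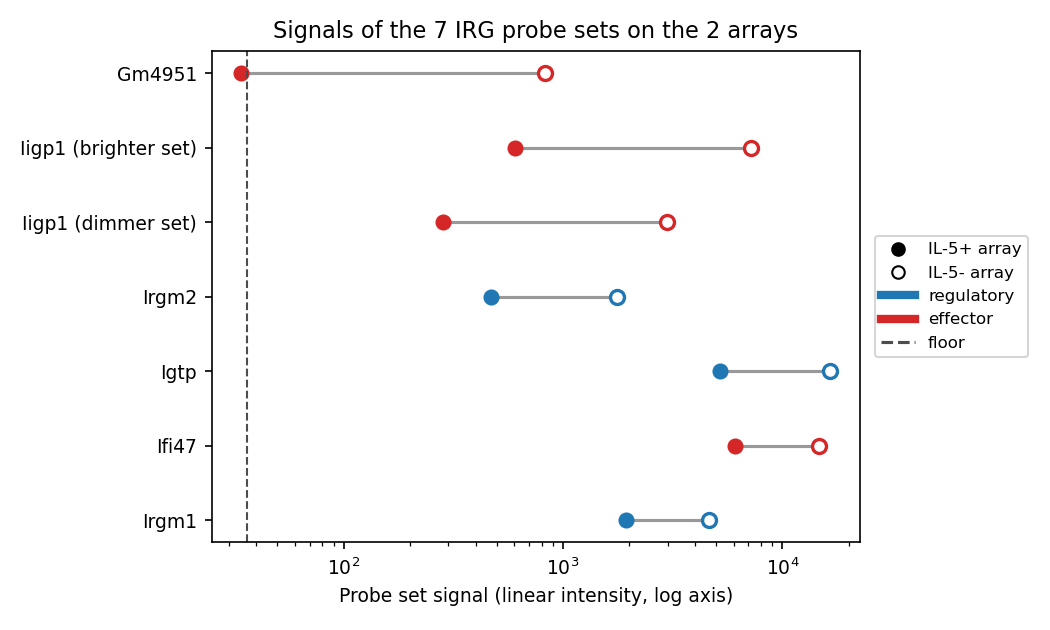
Signal of each of the 7 IRG probe sets on the IL-5+ array (filled) and the IL-5- array (open), on a log axis, with regulatory genes in blue, effector genes in red and the floor of 36.3 as a dashed line. Every filled point lies left of its open point, and only the IL-5+ signal of Gm4951 (34.2) is under the floor.

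The only error these arrays allow is the disagreement between probe sets of 1 gene. Its SD on the log2 ratio was 0.37 at mean signals from 112.8 to 500, 0.21 from 500 to 2000 and 0.13 above 2000, and it does not cover how cell preparations vary. The difference between the Iigp1 ratios of -3.57 and -3.38 was of its size.

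Set in order of their ratios, the members ran from Gm4951 and Iigp1 through Irgm2, Igtp and Ifi47 to Irgm1. Neighbours were compared with the SD of a difference, taken from the probe set SDs at their brightness. Ifi47 and Irgm1 differed by 0.016, far less than that SD of 0.19. Irgm2 and Igtp differed by 0.23, less than the SD of 0.25, so their order is not settled. Igtp and Ifi47 were 0.40 apart, with an SD of 0.19. The largest step measured on both sides was between Iigp1 and Irgm2, at 1.67 with an SD of 0.25. The step of 0.94 between Gm4951 and Iigp1 rests on the bound of Gm4951. Regulatory and effector genes were not separated in this order, since Ifi47 lay beside Irgm1.

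**Figure D2:**
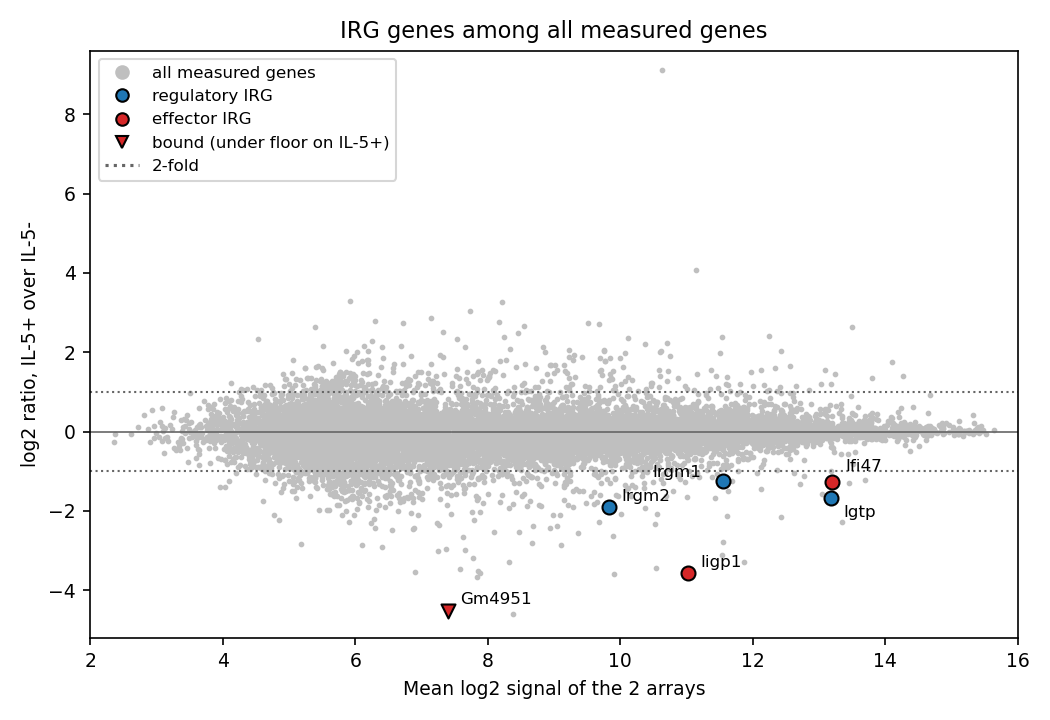
Log2 ratio of IL-5+ over IL-5- signal against the mean log2 signal for all 13133 measured genes (grey, bounds included at the floor), with the IRG genes coloured by role and dotted lines at 2-fold. The 6 IRG genes lie under the lower 2-fold line, with Igtp, Ifi47 and Irgm1 in the bright range where ratios scatter least.

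The order followed the position of the genes, a grouping made after the values were seen. The 4 members on chromosome 11 had log2 ratios from -1.90 to -1.25, and the 2 on chromosome 18, Iigp1 and Gm4951, stood at -3.57 and at a bound of -4.51. Irgm1 and Ifi47 flank a run of mostly IRG genes on chromosome 11 that includes Gm12185, Tgtp1 and Tgtp2. Tgtp1 and Tgtp2, effector genes, share 1 probe set and were therefore outside the members. That probe set had signals of 3186 and 9959, a log2 ratio of -1.64. Gm12185 was dim, at 47.7 and 113.1 (-1.25), and lost its 2-fold difference with a floor of 112.8. The value of the probe set shared by Tgtp1 and Tgtp2 fell within the range of the chromosome 11 members, and that of Gm12185 lay at its upper end, just outside it.

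The measured genes beside the members that are no IRG gene showed no 2-fold difference, with bounds taken at the floor. Over all measured genes 4.01% were at least 2-fold lower and 2.85% higher. Finding none among so few genes is near those shares and is not read as a contrast with the members. Within 5 protein-coding genes on either side of a member, 30 genes were no IRG gene and 14 of them were measured. The log2 ratios of the 14 ran from -0.90 (Isoc1, 4 genes from Gm4951) to 0.85 (Smim3, the next gene after Iigp1). Mrpl22 and Gemin5, close to Igtp, stood at 0.016 and -0.10, and Trim41, close to Irgm1, at 0.29. Trim7, next to Irgm1, had signals of 13.0 in IL-5+ and 41.4 in IL-5- cells, so its ratio is only a bound.

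Of the other IRG genes listed, 3 had a probe set with 1 symbol and 2 were measured. Irgq, a relative that interferon is not known to induce, had signals of 182.4 and 227.3 (-0.32) at its brighter probe set. Its other probe set was under the floor on both arrays, at 33.5 and 17.2. Irgc1, a testis gene, was under the floor on both arrays at 13.9 and 4.3. The probes of the arrays were not used here, so cross-hybridisation between members of the family was not tested.

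The guanylate-binding proteins (GBP), a related family of interferon-induced GTPases that act with the IRG proteins at pathogen vacuoles, lay on the same side. All 6 measured Gbp genes were at least 2-fold lower, with a median of -2.44. Over all measured genes 4.01% were at least 2-fold lower and 2.85% higher, and these shares apply to each list count below. This list and those below were chosen with earlier results of these data known, so their counts are a description. Gbp2b (1197 and 11749, -3.30) and Gbp2 (1006 and 8735, -3.12) had the largest differences and Gbp7 (1874 and 4462, -1.25) the smallest. The antiviral dynamin-like GTPase genes Mx1 (68.8 and 782.8, -3.51) and Mx2 (5.1 and 259.7, at least 7.15-fold) were lower too.

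Among large GTPases outside interferon control, none of 8 measured dynamin family genes was 2-fold apart, and their median was 0.011. Finding none among so few genes is near the shares over all genes, 4.01% lower and 2.85% higher. It is not read as a contrast with the interferon-induced GTPases. Dnm2, which cuts endocytic vesicles from the membrane, stood at -0.13, and Mfn1, a mitochondrial fusion protein, at 0.26. Atl3 had the largest difference of this list, -0.51.

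Upstream of the family, the interferon gamma gene itself was bright in both fractions. Ifng had signals of 17909 and 22634, a log2 ratio of -0.34. Of 6 measured interferon ligand and receptor genes, 1 was at least 2-fold lower and none higher. This was Ifngr2, the signalling chain of the interferon gamma receptor, with 129.6 in IL-5+ and 413.1 in IL-5- cells. Its probe sets gave log2 ratios of -1.67 and -1.45. The ligand-binding chain gene Ifngr1 stood at -0.27, and Ifnar2 of the type I receptor at -0.32. Ifna2 and Ifna4 were under the floor on both arrays.

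In the JAK, STAT and IRF list, 4 of 11 measured genes were at least 2-fold lower and none higher, with a median of -0.60. Irf1, a transcription factor that binds the element marked in the promoters, had signals of 2130 and 5050 (-1.25). Irf2 (-1.09), Stat2 (-1.12) and Irf8 (-1.06) were the others. Irf8 came under 2-fold with arrays scaled to equal medians (-0.98), and Stat2 with an added constant (-0.91). Irf9, the DNA-binding subunit of a complex activated by type I interferon, was at -0.60. Jak1 and Jak2 were at -0.0040 and 0.26.

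Negative feedback genes had a median of -0.31, with 2 of 10 at least 2-fold lower. These were Socs3 (495.9 and 1772, -1.84), an inhibitor of cytokine receptor signalling, and Usp18 (434.3 and 1486, -1.77), an inhibitor of the type I receptor. Socs1, the inhibitor of interferon gamma signalling, stood at -0.92 and Ptpn1 at -0.53.

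Other interferon targets were lower in part. Of 12 measured genes of antigen presentation and chemokines induced by interferon gamma, 4 were at least 2-fold lower and none higher (median -0.92). They were the chemokine genes Cxcl10 (101.9 and 1001, -3.30) and Cxcl11 (log2 bound -1.53), the immunoproteasome gene Psmb9 (-1.45) and Tapbp (-1.03), which helps load MHC class I. Cxcl11 had no value with a floor of 112.8, and Tapbp stood at -0.96 with arrays divided by their median. B2m, the light chain of MHC class I, was at 0.019. Of 15 measured antiviral genes 9 were at least 2-fold lower and none higher (median -1.19). The lowest were Ifit3 (-3.57), Rsad2 (-2.54), Ifit1 (-2.11) and Dhx58 (-2.06). Only Oasl1 lay above 0, at 0.76 (107.0 in IL-5+ and 63.1 in IL-5- cells). The probe sets of Dhx58 disagreed, with a median of -0.21.

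**Figure D3:**
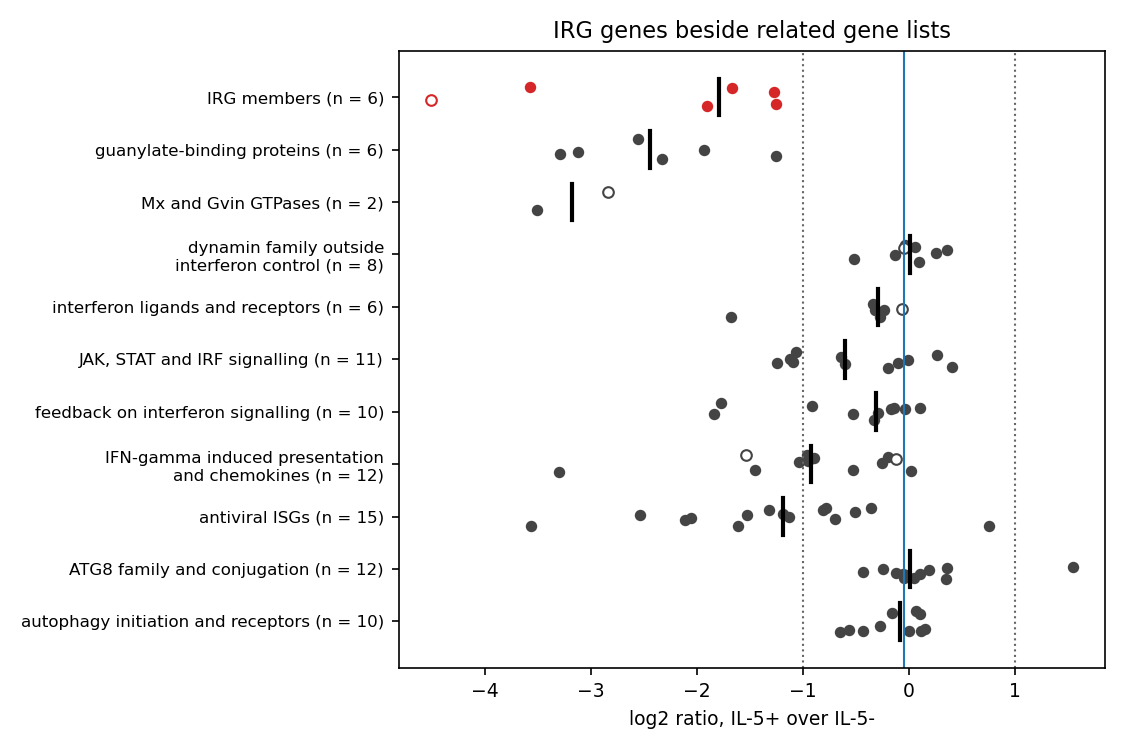
Log2 ratio of each measured gene in the IRG family (red) and 10 related lists (dark), with open points for bounds, black bars at list medians, dotted lines at 2-fold and a blue line at the median of all genes (-0.048). The IRG, GBP and Mx genes lie left of the lower 2-fold line, and the dynamin and autophagy lists centre on 0.

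The marked promoter element was also counted over the measured genes with a promoter in the table. It was present in 37 of 402 genes at least 2-fold lower (9.20%), 14 of 294 at least 2-fold higher (4.76%) and 394 of all 10592 (3.72%). All 5 Gbp promoters in the table held it. So did 5 of the 8 promoters of other IRG genes, among them Tgtp1, Tgtp2 and Gm12185, while Gm5431, 9930111J21Rik2 and Irgq held none. The genes at least 2-fold lower include members and other listed interferon-induced genes, which were chosen with results of these data known. The share without them was not computed, and no test was made of these shares. Of the 4 members shown above, Ifi47, without the element in its window, stood at -1.27, and Irgm1, with it, at -1.25. Whether the element bears on these ratios was not tested.

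IRG and GBP proteins reach vacuoles with the help of the ATG8 conjugation machinery of autophagy, so these genes were set beside the members. Of 12 measured genes none was 2-fold lower and 1 was higher, and their median was 0.012. Over all measured genes 4.01% were at least 2-fold lower and 2.85% higher. Such small counts, here and for the autophagy initiation genes below, are not read as a contrast with the members. The higher gene was Gabarapl1, which encodes an ATG8 protein, with signals of 7640 in IL-5+ and 2613 in IL-5- cells. Its probe sets gave 1.55 and 1.66. Atg3 and Atg12, parts of the conjugation enzymes, stood at 0.36 and 0.35, and Atg10 at -0.43. These counts take each gene at its brightest probe set. The probe sets of Atg7 disagreed, from 0.19 to 1.95, and those of Map1lc3a ran from -0.998 to -0.12. Autophagy initiation and receptor genes had a median of -0.078 with none of 10 past 2-fold, and Rb1cc1 stood at -0.64, Atg14 at -0.57 and Ulk1 at -0.43.

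With 2 arrays, likeness to the family could be measured only as the distance between log2 ratios. Among genes outside all lists with a brighter signal of at least 500, the 6 nearest to the members' median were Gpm6b, Fgf13, Ikzf2, Ddb2, Gramd3 and Pml. Their ratios ran from -1.83 (Gramd3) to -1.73 (Pml, which encodes the scaffold of PML nuclear bodies).

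Both fractions carried CD4 T cell markers, while Th2 genes other than Il5 were not examined here. All 8 measured CD4 T cell markers were above the floor, with Cd4 at 454.5 and 471.0 and Cd3d at 9116 and 13553 on the IL-5+ and IL-5- arrays, and the list's median ratio was -0.25. The sorting marker Il5 had signals of 37085 and 67.4. Macrophages, B cells and other cells of the host spleen can express IRG genes, and 41 markers of 7 such cell types had a named probe set. With the floor at 36.3 none of the 41 was 2-fold higher or lower, 16 were under the floor on both arrays and 37 stayed under 112.8 on both. At such dim signals the floor hides most differences, so this count cannot show that other cells were equally rare in both fractions. Without the floor, signals differed more, as for Fcer1g at 61.4 in IL-5+ and 4.7 in IL-5- cells and, the other way, for Pax5. Summed signals of the 12 monocyte and macrophage markers were 398.2 in IL-5+ and 492.4 in IL-5- cells, with C1qa, C1qb, C1qc, Cd14 and Itgam under the floor on both. The 7 B cell markers summed to 182.4 and 274.7, with Cd79a and Cd79b under the floor on both, Ms4a1 at 60.7 and 62.1, and Pax5 at 6.4 and 70.2. The 7 dendritic cell markers summed to 338.3 and 408.7, and the 5 natural killer cell markers to 172.7 and 55.0. The 5 neutrophil markers summed to 115.9 and 154.4, the 3 erythroid markers to 57.1 and 49.2, and the CD8 T cell genes Cd8a and Cd8b1 to 347.1 and 245.1. The part of these small sums in the IRG differences was not tested.

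**Figure D4:**
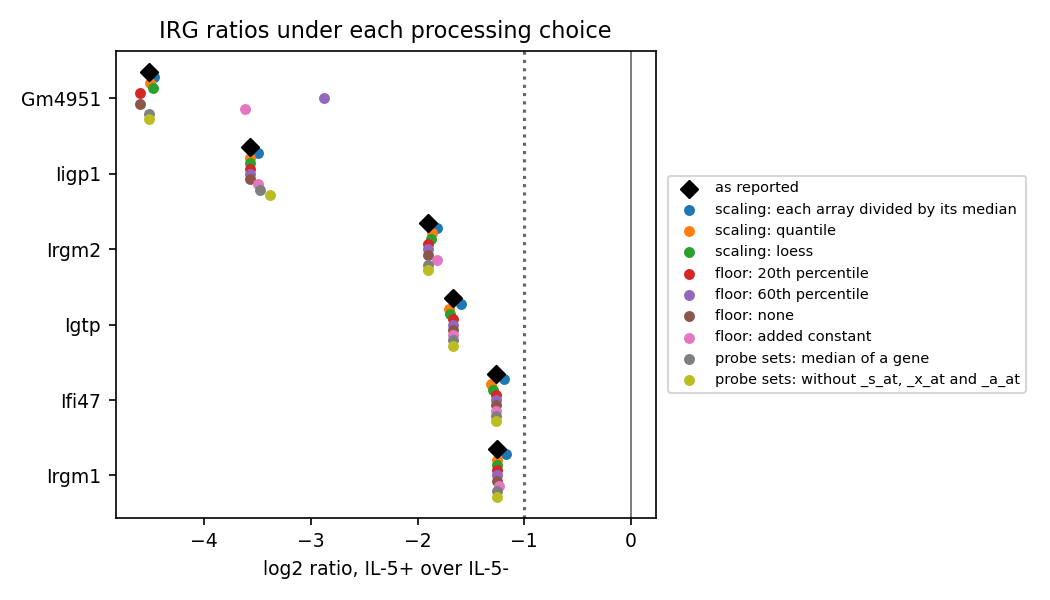
Log2 ratio of each IRG gene as reported (black diamonds) and under 9 other scalings, floors and choices of probe sets (coloured points), with a dotted line at 2-fold lower. Every point lies left of that line, and only Gm4951 moves widely, from -4.60 to -2.88.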

How the data were processed

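Gene expression was measured in 2 samples of sorted mouse memory Th2 cells, 1 array each. For each array the authors deposited a single intensity per probe set, and the submitters' processing notes name GCOS, Affymetrix software. Neither the version nor the scaling target is stated. The deposited intensities are linear, from 0.1 to 51950, without detection calls. Their means without the lowest and highest 2% were 496 and 497, as scaling to a common target would give, so ratios are relative to the rest of the array.

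Of 45037 probe sets, 34945 had 1 gene symbol, 932 several and 9160 none. Where a gene had several, the probe set of highest mean log2 signal stood for it. Signals were floored at 36.3, which left 5060 of 18193 genes without a ratio. Low signals are compressed, and precision is limited by the number of arrays. The members and 19 further lists were chosen with earlier results of these data known. Named genes are all members and other IRG probe sets, up to 4 genes per pathway list with the largest difference, selected transcription factors, bright or dim markers of cell types and 6 genes of like ratio. Others were named after their values were seen: Gbp7, B2m, Jak1, Jak2, Oasl1, Mrpl22, Gemin5, Trim41, Trim7, Isoc1, Smim3, Jkamp, Atg7 and Map1lc3a. Promoter alignment was global (match 2, mismatch -1, gap opening -4, extension -1). Protein sequences were not used here. Counting was tested on simulated data with differences well past 2-fold planted in bright genes only. It was not tested for dim genes or for differences near 2-fold. Python 3.11.15, numpy 2.4.6, pandas 2.3.3, statsmodels 0.14.6 and biopython 1.88 were used.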

Additional observations from a re-analysis of the deposited data

How the results depend on the processing

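All 6 members stayed at least 2-fold lower under 3 other scalings (loess, quantile, array median), with no floor, floors at the 60th and 20th percentile of signals or a constant added instead, and with a gene taken at the median of its probe sets or restricted to those ending in plain _at. At 3-fold, 4 members were counted, without Irgm1 and Ifi47. The ranges were -1.26 to -1.17 for Irgm1, -1.31 to -1.19 for Ifi47, -1.71 to -1.59 for Igtp, -1.90 to -1.82 for Irgm2 and -3.57 to -3.38 for Iigp1. Gm4951 stood at -2.88 with the 60th percentile floor and -3.62 with the added constant, both of which raise its dim IL-5+ signal. Counts over all genes, 526 lower and 374 higher, became 1572 and 1325 with the 20th percentile floor, 226 and 183 with the 60th, and 2314 and 2058 with none. They were 1563 and 1036 at 1.5-fold, and 143 and 91 at 3-fold. The count of lower pathway genes went from 29 to 16 at 3-fold. With plain _at probe sets, Irf1, Irf2, Gbp3 and Mx1 had no value. No paired analysis was possible because each group has 1 array. Neither variation between animals nor between sorts was measured.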
